A study of Mus musculus with 18 samples.

Results

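The ribosome load of mRNAs, meaning ribosome footprints per unit of mRNA, was described gene by gene in unedited TC1 cells. The genes taken were those that both the mRNA and the footprint table list and whose mean mRNA level in the unedited (WT) libraries was at least 5 FPKM, fragments per kilobase of gene scaled to library depth. They were 6339 of the 17379 genes in the mRNA table and of the 10747 in both tables, and 6231 of them were protein-coding. A further 653 genes reached 5 FPKM but are not listed in the footprint table, 98 of them protein-coding, and had no load. The labels call TC1, a line of mouse tumour cells, a fibrosarcoma, and the study sequenced mRNA, ribosome footprints (Ribo-seq) and acetylated RNA (acRIP-seq) in it. The load rests on 2 Ribo-seq and 2 mRNA libraries of wild type TC1 cells without a guide RNA. Beside them stand 2 Ribo-seq and 2 mRNA libraries of TC1 cells with a guide against Nat10 (sgNAT10), and 3 WT mRNA libraries of a separate set sequenced with sgMyc cells. Neither set holds cells with a control guide, and the labels do not say whether replicates came from separate cultures, so p-values measure the spread between these libraries only.

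In Ribo-seq, RNA that is not covered by a ribosome is digested and the protected fragments are sequenced, so that footprints lie almost wholly on coding sequence and their number grows with the number of ribosomes that are translating. An mRNA with frequent initiation carries many ribosomes, and one held back by an upstream open reading frame, a bound repressor or storage outside polysomes carries few. Footprints give no direct reading of speed, since slow or paused ribosomes also raise their number. Here both assays were scaled by the length of the whole gene, so long untranslated regions lower the footprint value of a gene and not its mRNA value.

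Whole reads, recovered from FPKM ratios, came to 2991460 and 2931528 in the WT footprint libraries and 16695028 and 13940096 in the WT mRNA libraries. The median gene had 183 footprint reads and 1129 mRNA reads per library, and 6234 genes had at least 10 footprint reads on average. The median absolute difference between replicates was 0.31 on the log2 scale for footprints and 0.04 for mRNA, so the spread of a load came mostly from the footprints. Pearson's r between replicates over the 6339 genes was 0.938 for footprints and 0.998 for mRNA. The WT mRNA libraries of the sgMyc set stood apart from those used here, with r = 0.841 between the 2 sets over 6330 genes, and loads that change sign with them are named. Of 11 mesenchymal markers, 7 reached 1 FPKM in mRNA (Vim, Fn1, S100a4, Col1a2, Col3a1, Pdgfrb and Thy1), against 0 of 12 epithelial and 0 of 8 endothelial markers. Among markers of T cells and macrophages 1 of 11 (Cd247) and 3 of 10 (Csf1r, Cd14 and Cd68) did, with summed levels of 4.13 to 4.15 and 5.5 to 6 FPKM.

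Loads spread widely between genes. The load was the difference of the mean log2(FPKM + 1) of footprints and mRNA, and it is given relative to the median gene, whose load was 0.13. The quartiles of the relative load were −0.81 and 0.68, a 2.80-fold span, and the 5th and 95th percentiles of −2.14 and 1.53 spanned 12.6-fold. By limma with Benjamini-Hochberg adjustment over all 6339 genes, 1917 genes (30.2%) lay above the median load and 1689 (26.6%) below it at an adjusted p under 0.05, 56.9% in all. Of these, 929 (14.7% of all genes) were above and 1128 (17.8%) below it by at least 1 on the log2 scale, which is 2-fold. The counts follow the spread that enters the test. Without mRNA replicate 1 or 2, when the footprint pair alone sets the spread, 837 or 839 genes were above and 457 or 472 below. Without footprint replicate 1 or 2, when the mRNA pair sets it, 2884 or 2881 were above and 2868 or 2888 below. Without centring on the median gene, 2172 loads were above 0 and 1458 below.

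**Figure D1:**
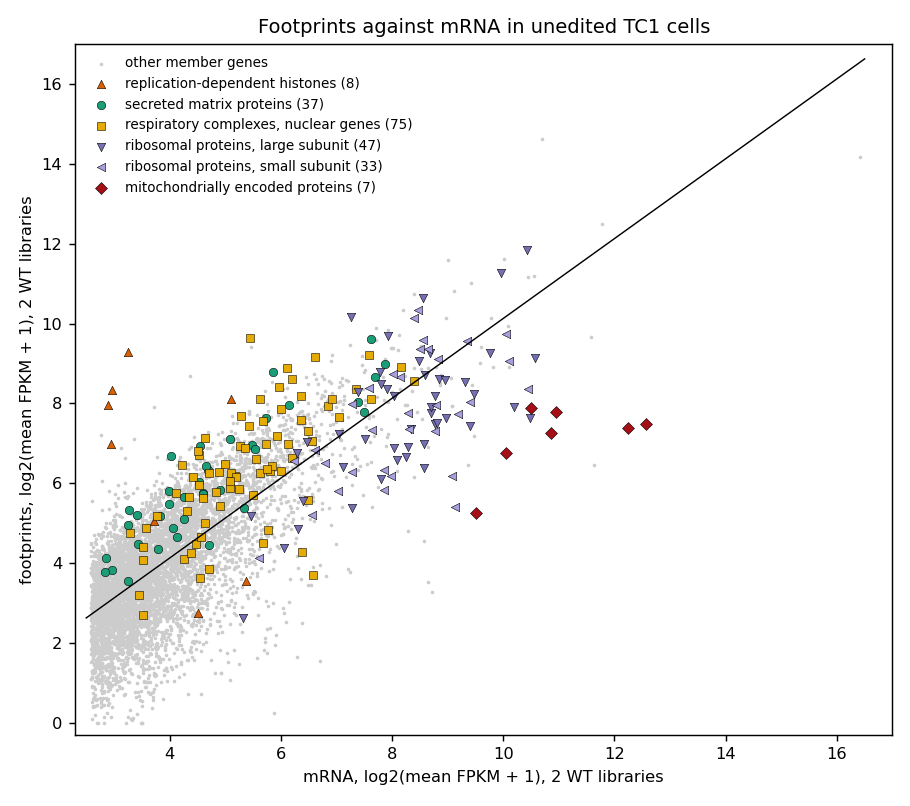
Footprints (vertical axis) against mRNA (horizontal axis) of 6339 genes, each as log2(mean FPKM + 1) over 2 WT libraries, with the line at the median load. Of 8 histone genes 6 lie above the line, as do most secreted matrix and respiratory genes, with most ribosomal protein genes and all 7 mitochondrially encoded genes below it.

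Sorting of the genes into 38 classes showed which functions carried many or few footprints per mRNA. Class medians were above 0 in 25 classes and below 0 in 13. The highest were those of 8 replication-dependent histone genes (3.39), 37 secreted matrix proteins (1.19), 34 proteasome subunits (0.95), 20 citrate cycle enzymes (0.94) and 20 cytosolic aminoacyl-tRNA synthetases (0.91). The lowest were those of 7 mitochondrially encoded proteins (−3.71), 12 polyamine and hypusine genes (−1.97), 47 large and 33 small subunit ribosomal proteins (−0.91 and −0.65), 71 zinc finger proteins named Zfp (−0.70), 8 genes of the Myc network (−0.45, or 0.17 with the mRNA of the sgMyc set) and 84 solute carriers (−0.42). In 35 of the 38 classes the medians with WT footprint library 1 alone and library 2 alone had the same sign as each other. Among these, immediate early genes had −0.06 and −0.08 with single libraries but 0.06 with both. In 37 classes the median had the same sign in the sgNAT10 libraries as in WT. Relative loads in sgNAT10 correlated with those of WT at r = 0.912 over genes.

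**Figure D2:**
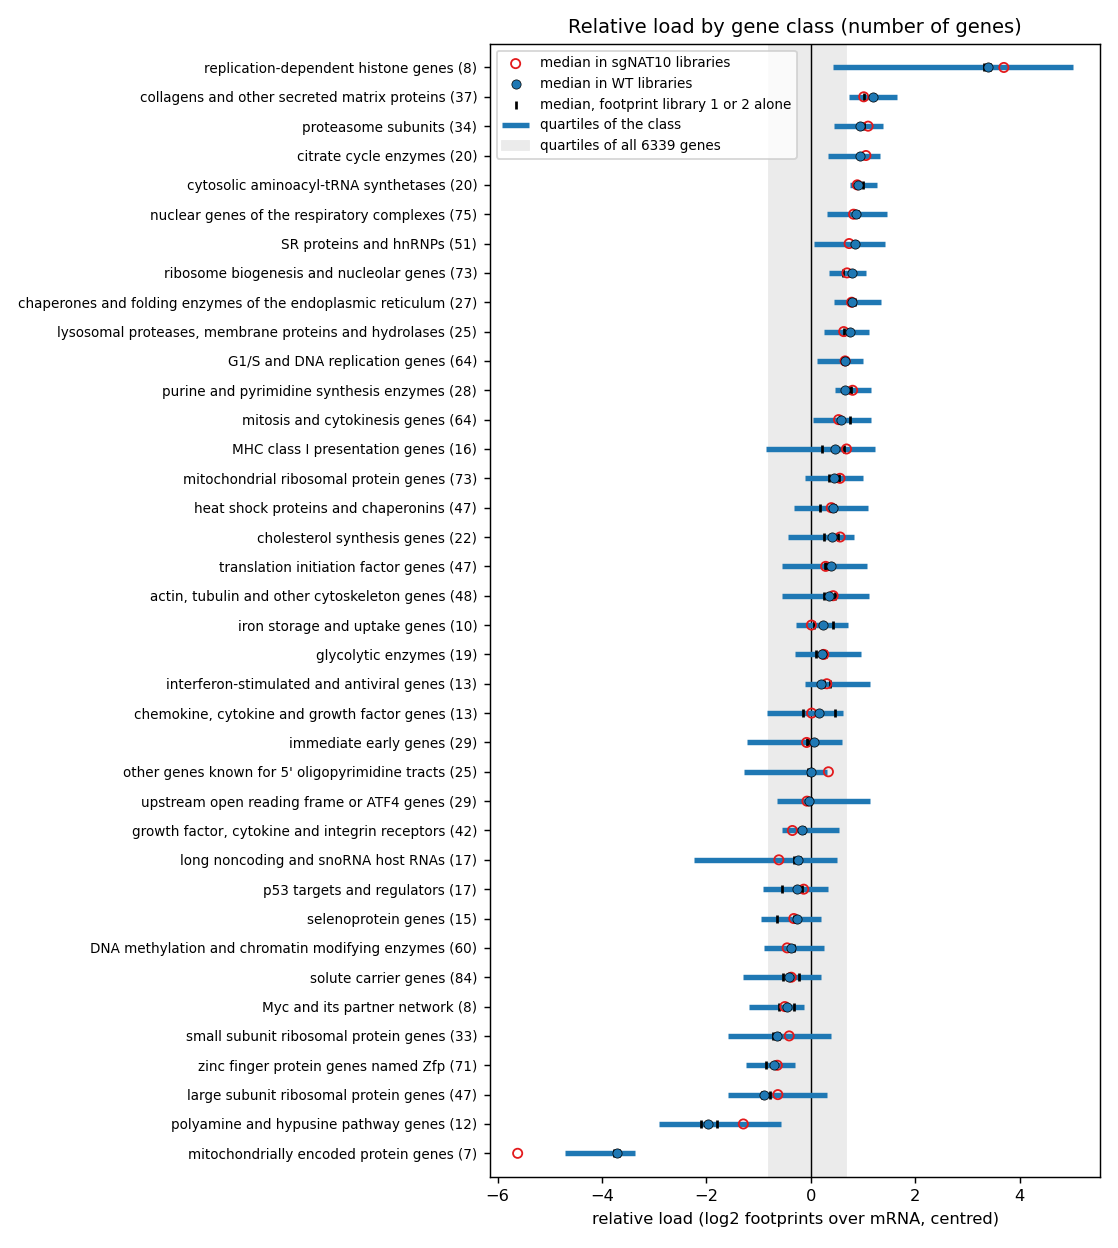
Relative load (log2 footprints over mRNA, centred on the median gene) of 38 gene classes. Open circles give class medians in sgNAT10 libraries and filled circles those in WT libraries, ticks the medians with either WT footprint library alone, bars the quartiles of the class and the grey band the quartiles of all 6339 genes. Histones stand at 3.39 and mitochondrially encoded genes at −3.71, and the bars of most other classes overlap the grey band.

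Ribosomal protein mRNAs were abundant and carried few footprints for their level. Of 80 such genes, 18 (22.5%) lay above the median load and 48 below it, against 30.2% and 26.6% of all genes. The large subunit took 7.92% and 7.05% of the footprint FPKM of protein-coding nuclear genes in the 2 libraries, against 10.4% and 10.3% of their mRNA FPKM. For the small subunit these shares were 4.45% and 4.27% of footprints and 6.81% and 6.80% of mRNA. The quartiles were −1.59 and 0.31 in the large subunit and −1.58 and 0.38 in the small one, so the genes did not move as a block.

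At the low end stood Rpsa, a small subunit protein also known as the laminin receptor. It had 43.2 and 40.2 FPKM in footprints, against 559 and 566 FPKM in mRNA. Both footprint values lay far below both mRNA values, for a relative load of −3.85 ± 0.06 (SE; limma adjusted p = 0.0015), which is 14.4-fold below the median gene. Rplp1, an acidic stalk protein that helps recruit elongation factors, had 174 and 221 FPKM in footprints and 1449 and 1424 FPKM in mRNA, for −2.99 ± 0.13 (adjusted p = 0.0018). In both genes every footprint value was far below every mRNA value. Rpl13a, known in human cells for a role in silencing inflammatory mRNAs, had the lowest load of the large subunit at −3.29, but its footprint libraries held 0.90 and 9.40 FPKM, from 6 and 61 reads, and do not fix a value.

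At the high end, Rpl36a had 1533 and 758 FPKM in footprints, against 153 and 150.5 FPKM in mRNA. Its footprint libraries differed from each other, yet both were far above mRNA (2.69 ± 0.37, adjusted p = 0.0087). Rpl38, which in mice is needed for the translation of some Hox mRNAs, had 1935 and 1230.3 FPKM in footprints and 381 and 373 FPKM in mRNA (1.90 ± 0.24, adjusted p = 0.0072). Rps29 and Rps21, both small subunit proteins, had relative loads of 1.75 and 1.63. Rpl37a, Rpl8 and Rpl41 stood at 1.64, 1.27 and 1.17. Proteins of the same particle thus lay on both sides of the median gene.

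**Figure D3:**
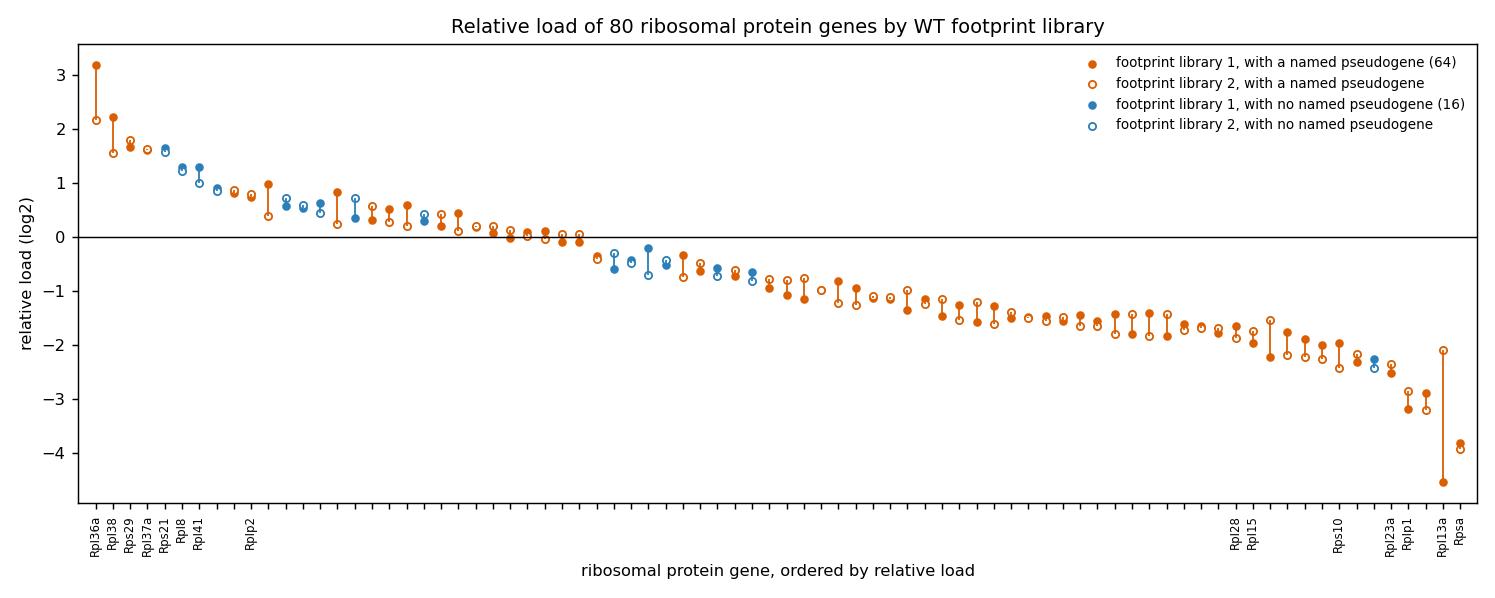
Relative load (log2, vertical axis) of 80 ribosomal protein genes, ordered by load, with 1 point per WT footprint library joined by a line and the genes named in the text labelled. Orange marks 64 genes with a named pseudogene and blue the 16 with none, and the loads run from 2.69 in Rpl36a to −3.85 in Rpsa.

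Among ribosomal protein genes, low loads went together with named pseudogenes. Only pseudogenes that carry the symbol of the gene followed by -ps were counted, so copies under other names are missed. The 64 ribosomal protein genes with a named pseudogene had a median of −1.13, with 43 below and 9 above the median load. The 16 without one had a median of 0.47, with 5 below and 9 above. Spearman's correlation between load and the number of named pseudogenes was −0.377 over the 80 genes. Over all genes, the 279 with a named pseudogene, which include these 64, had a median of −0.80 and the other 6060 one of 0.03. How reads that match several places were counted is not given in the sources used here, so the loads of genes with near-identical copies are uncertain, and the part of such copies in the low loads was not tested. Without the genes that have a named pseudogene or overlap another coding gene, the median was −0.46 in the large subunit and turned to 0.52 in the small one.

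Most ribosomal protein mRNAs are known to begin with a cytosine and a run of pyrimidines, the terminal oligopyrimidine (TOP) tract, through which mTOR signalling and LARP1 control their translation. Starts annotated in RefSeq (GRCm38.p6) were searched for C followed by at least 4 pyrimidines. Of 5010 genes with a load and an annotated start, 162 (3.23%) had the tract at any of their starts. The same was true of 14 of 60 ribosomal protein genes (23.3%). Counted by start and not by gene, 2.51% of all 32851 annotated starts held it, a share of another unit. An annotated start can lie some bases from the start that cells use. The starts of 6 ribosomal protein genes with a tract are shown, the 3 with the lowest and the 3 with the highest load, from 10 bases before the start to 15 from it on, with the pyrimidine run in capitals.
Rps10: gcgcacgcccCTTCCTTTCCagcct
Rpl15: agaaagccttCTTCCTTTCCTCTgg
Rpl28: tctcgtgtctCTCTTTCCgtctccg
Rpl38: aagcctcgttCTTTCCCCgttctct
Rps21: aggacccgccCTCCTgcccaatagt
Rplp2: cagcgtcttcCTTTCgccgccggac
They lie at chr17:27635230-27635254 on the minus strand (Rps10), chr14:18270972-18270996 on the minus strand (Rpl15), chr7:4792955-4792979 (Rpl28), chr11:114668570-114668594 (Rpl38), chr2:180257369-180257393 (Rps21) and chr7:141447641-141447665 (Rplp2), the last 4 on the plus strand. The runs were 10, 13 and 8 bases in Rps10, Rpl15 and Rpl28, whose relative loads were −2.17, −1.83 and −1.74. They were 8, 5 and 5 bases in Rpl38, Rps21 and Rplp2, whose loads were 1.90, 1.63 and 0.78. Ribosomal protein genes with the tract had a median of −1.32 (14 genes), against −0.67 in the 46 with another annotated start. The calls were close, with 64.3% below and 21.4% above the median load with the tract, against 60.9% and 21.7% with another start. Over all genes the medians were −0.22 with the tract and 0.02 in the 4848 with another start.

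Other genes known for TOP tracts did not share a direction. Of 25 such genes, 6 lay above and 10 below the median load, and their median was 0.01. Eef1a1, the elongation factor that brings aminoacyl-tRNA to the ribosome, had 799 and 828 FPKM in footprints, against 3011 and 3087 FPKM in mRNA. Its relative load was −2.03 ± 0.05 (adjusted p = 0.0016), the footprint and mRNA values lying well apart. Pabpc1 and Pabpc4, which bind poly(A) tails, had −1.86 and −3.51. Eef1g, a subunit of the exchange factor for Eef1a1, had −2.38, and Eef2, which moves the ribosome along the mRNA, lay near the median gene at −0.27 ± 0.05 (adjusted p = 0.015). Above the median stood Cct4, a chaperonin subunit, at 1.39, Eif3l, a subunit of initiation factor eIF3, at 1.05, and the filament protein Vim at 1.28. With the mRNA of the sgMyc set, Vim turned to −0.44 and Eef2 to 0.06.

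Initiation factors were split, and tRNA synthetases and ribosome biogenesis genes were mostly high. Among initiation factors 22 of 47 genes (46.8%) lay above and 11 (23.4%) below the median load, against 30.2% and 26.6% of all genes. In the fifth of genes with the most mRNA in the sgMyc set WT libraries, these shares were 44.9% and 29.1%. Eif4e, which binds the mRNA cap, had 197 and 165 FPKM in footprints and 34.9 and 33.5 FPKM in mRNA (2.24 ± 0.11, adjusted p = 0.0018). Eif4ebp2, whose product sequesters eIF4E, had 1.97 and 2.03 FPKM in footprints and 19.4 and 18.8 FPKM in mRNA (−2.87 ± 0.12, adjusted p = 0.0018). The cap-binding factor and its inhibitor thus stood at opposite ends of the class, which was taken by gene names starting with Eif. Long untranslated regions lower a load, and their lengths were not compared here. All 20 cytosolic aminoacyl-tRNA synthetases had a positive load and 19 were above the median gene, from Lars at 1.65 to Wars at 0.21, which did not pass the test. Of 73 ribosome biogenesis genes 45 (61.6%) lay above and 2 (2.74%) below, led by the rRNA methyltransferase Nop2 at 1.90.

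Mitochondrially encoded mRNAs had the lowest loads of any class. All 7 lay below the median gene, from −2.74 in mt-Nd6 to −5.21 in mt-Nd1. mt-Nd1, a subunit of complex I, had 208 and 150.1 FPKM in footprints, against 6429 and 5690 FPKM in mRNA. mt-Co1, the catalytic subunit of complex IV, had 170.4 and 160.04 FPKM in footprints and 5201 and 4530.4 FPKM in mRNA. The footprints of both genes were far below their mRNA in each library, with relative loads of −5.21 ± 0.19 and −4.995 ± 0.092 (adjusted p = 0.0016 and 0.0015). These mRNAs are translated by ribosomes inside mitochondria, which differ from cytosolic ribosomes in size and drug sensitivity. The class median was −5.62 in sgNAT10 libraries and −3.71 in WT libraries. mt-Co2, mt-Atp6 and mt-Co3, with 324, 121 and 102 FPKM of mRNA on average, are not listed in the footprint table.

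The nuclear genes that build the same respiratory complexes were mostly above the median load. Of 75 genes, 50 (66.7%) lay above and 6 below it, with a median of 0.86. Complex I had 26 of 35 nuclear subunits above and 0 below, with 1.15 as its median, and complex III had 7 of 9 above and 0 below. Complex IV was split, with 4 of 11 subunits above and 3 below. Its subunit Cox7b had 553 and 397 FPKM in footprints and 68.6 and 67.9 FPKM in mRNA (2.63 ± 0.18, adjusted p = 0.0024), while Cox7c had 9.53 and 27.1 FPKM in footprints and 80.4 and 84.8 FPKM in mRNA (−2.41 ± 0.52, adjusted p = 0.025). Subunits of 1 complex thus lay on both sides of the median gene. Atp5k, the ATP synthase subunit e, had the highest load of the class. It held 781 and 823 FPKM in footprints, against 42.5 and 43.05 FPKM in mRNA, a relative load of 4.07 ± 0.06 (adjusted p = 0.0015), with 4 named pseudogenes.

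Mitochondrial ribosomal proteins (31 of 73 above, 4 below, median 0.44) and citrate cycle enzymes (13 of 20 above, 1 below) were also high, with Ogdh, which oxidises 2-oxoglutarate, at 1.72. Glycolytic enzymes were mixed, 9 of 19 above and 6 below. Gapdh had 242 and 249 FPKM in footprints and 525 and 556 FPKM in mRNA (−1.26 ± 0.06, adjusted p = 0.0018), and its load turned to 2.66 with the mRNA of the sgMyc set.

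Subunits of 1 complex were not closer to each other in footprints than in mRNA. Across the 14 subunits of the 20S proteasome core the SD of log2 footprints was 1.09 and that of log2 mRNA 0.63, and across the 8 subunits of the chaperonin TRiC they were 0.88 and 0.74. The values were 0.90 and 0.47 for the 6 subunits of the MCM helicase, 1.02 and 0.77 for 12 of eIF3 and 1.25 and 0.80 for complex I. For 8 genes of the Arp2/3 complex, with Arpc1a and Arpc1b both counted, they were 1.48 and 0.73. Over all 6339 genes these SDs were 1.70 and 1.28. Footprints also carry the wider replicate spread. Being scaled by whole-gene length, they vary with untranslated regions too. The part of either in these SDs was not tested. All 8 subunits of TRiC, which folds actin and tubulin, lay above the median gene, from Cct7 at 0.78 to Cct8 at 2.09, as did 25 of 34 proteasome subunits (73.5%), with 3 below.

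Genes of the secreted matrix class carried many footprints. Its list took collagens, matrix glycoproteins, and matrix proteases with their inhibitors. It also took collagen-modifying enzymes such as P4ha2, which act inside the cell, so not all its members are secreted. Of its 37 genes with a load, 30 (81.1%) lay above and 1 (2.70%) below the median load, against 30.2% and 26.6% of all genes. Their quartiles were 0.73 and 1.66. Spp1, the secreted phosphoprotein osteopontin, had 419 and 455 FPKM in footprints, against 57.1 and 56.6 FPKM in mRNA, for 2.79 ± 0.07 (adjusted p = 0.0016). P4ha2, a prolyl hydroxylase subunit that modifies collagen chains, had 104.9 and 97.6 FPKM in footprints and 15.3 and 15.1 FPKM in mRNA (2.53 ± 0.08, adjusted p = 0.0016). Col8a1, a network-forming collagen, had 111 and 129.9 FPKM in footprints and 22.8 and 21.9 FPKM in mRNA (2.25 ± 0.10, adjusted p = 0.0018). In these 3 genes every footprint value exceeded every mRNA value. Thbs1, Fn1 and Col1a2, which encode thrombospondin, fibronectin and a chain of type I collagen, had 1.94, 1.36 and 1.22. The only gene below the median was the elastic fibre protein Efemp2, at −0.38 ± 0.10 (adjusted p = 0.038).

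The height of this class depended on the mRNA libraries. With the WT mRNA of the sgMyc set its median was 0.48, and the loads turned to −0.48 in Spp1, −0.62 in Thbs1, −1.05 in Fn1 and −1.04 in Col1a2, while P4ha2 and Col8a1 stayed positive at 1.37 and 1.87. Other proteins of the secretory route were also high. Chaperones and folding enzymes of the endoplasmic reticulum had 19 of 27 genes (70.4%) above and 3 below, led by the disulfide isomerase Pdia6 at 2.17. Lysosomal proteins had 16 of 25 (64.0%) above and 1 below, led by the protease Ctsl at 1.95. With the mRNA of the sgMyc set the median of the endoplasmic reticulum class was 0.59, against 0.79 with the mRNA used here, and that of the lysosomal class was 0.057, against 0.76. Solute carriers, which sit in the plasma membrane or in organelles, had 15 of 84 (17.9%) above and 28 (33.3%) below, and growth factor, cytokine and integrin receptors 11 of 42 above and 12 below. Igf2r, which carries mannose 6-phosphate proteins to lysosomes, was the highest receptor at 1.61, and Tgfbr2, the ligand-binding TGF-beta receptor, the lowest at −1.62.

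Histone genes held the highest loads of all. Replication-dependent histone mRNAs end in a stem-loop in place of a poly(A) tail and are made in S phase, and the labels do not say whether mRNA was selected by its tail. Only 8 of the 54 such genes in both tables reached 5 FPKM in mRNA, 6 of them above and 2 below the median load. Hist1h1e, a linker histone, had 665 and 585 FPKM in footprints, against 8.99 and 8.07 FPKM in mRNA. Hist1h3c, an H3 gene, had 377 and 268 FPKM in footprints and 7.39 and 6.14 FPKM in mRNA. Hist1h2bj, an H2B gene, had 242 and 256 FPKM in footprints and 6.80 and 6.12 FPKM in mRNA. All footprint values of the 3 genes were far above the mRNA values, with relative loads of 5.91 ± 0.10, 5.24 ± 0.21 and 4.94 ± 0.09 (adjusted p = 0.0015, 0.0017 and 0.0015). At a minimum of 20 FPKM, which these 3 genes do not reach, the class median was −2.09. The handling of reads that match several histone genes is not given, so their split is uncertain for high and low genes alike.

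The 2 histone genes below were Hist1h2ap and Hist1h2ao, both H2A genes with near-identical copies. Hist1h2ap had 7.24 and 14.2 FPKM in footprints and 41.2 and 39.4 FPKM in mRNA (−2.01 ± 0.33, adjusted p = 0.013), and Hist1h2ao a load of −1.89. Both are uncertain, because their footprints came from 8 to 21 reads and their loads turned to 2.46 and 1.78 with the mRNA of the sgMyc set. H2afx, the H2A variant that marks DNA breaks when phosphorylated, had 401 and 417 FPKM in footprints and 19.7 and 19.4 FPKM in mRNA (4.19 ± 0.06, adjusted p = 0.0015).

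Genes of the cell cycle were above the median load more often than below it, and zinc finger and chromatin genes below it more often than above. DNA replication genes had 35 of 64 (54.7%) above and 7 below, and mitosis genes 36 of 64 (56.2%) above and 8 below. Rrm1, the large subunit of ribonucleotide reductase, had 80.01 and 82.7 FPKM in footprints and 19.6 and 18.4 FPKM in mRNA (1.92 ± 0.08, adjusted p = 0.0017). Cdk1, the kinase that drives entry into mitosis, had 133 and 115 FPKM in footprints and 30.1 and 28.8 FPKM in mRNA (1.91 ± 0.10, adjusted p = 0.0018). In both genes the footprint replicates lay far above the mRNA replicates. At the other end of the 2 lists were the G1 cyclin Ccnd3 at −1.68 and the kinesin Kif1c at −2.25. The mitosis list took kinesins by gene names starting with Kif, so not all of them need act in mitosis. Zinc finger genes named Zfp had 30 of 71 (42.3%) below and 6 (8.45%) above, and DNA methylation and chromatin enzymes 22 of 60 (36.7%) below and 10 above, with 28 not called and a class median of 0.033 at a minimum of 20 FPKM. Kmt5a, which methylates histone H4, was the lowest of these enzymes at −3.87 and Trim28, a co-repressor of zinc finger proteins, the highest at 1.33. RNA-binding SR proteins and hnRNPs had 33 of 51 (64.7%) above and 7 below, from Srsf7 at 2.46 to Hnrnpf at −3.21.

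Genes with known translational control were taken one by one. Upstream open reading frames, short reading frames before the main one, hold back translation of the main frame in unstressed cells. The values used here are per gene, so footprints on upstream frames and on the main frame were not told apart. Atf4, the transcription factor of the integrated stress response, had 135 and 146 FPKM in footprints, against 242 and 238 FPKM in mRNA. Both footprint values were below both mRNA values, for −0.90 ± 0.07 (adjusted p = 0.0026). Atf5, a related factor, had 22.6 and 12.1 FPKM in footprints and 41.8 and 45.1 FPKM in mRNA (−1.46 ± 0.32, adjusted p = 0.026). Ppp1r15a, a phosphatase subunit that reverses eIF2α phosphorylation, had 2.05 and 3.88 FPKM in footprints and 9.26 and 8.68 FPKM in mRNA (−1.49 ± 0.28, adjusted p = 0.018). Its constitutive relative Ppp1r15b stood at −0.65, or 0.14 with the mRNA of the sgMyc set, and the transporter gene Slc35a4 at −2.65, with footprint values of 1.84 and 7.86 FPKM.

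Not all genes with such frames were low. Ddit3, which encodes CHOP, had 2.59 and 6.85 FPKM in footprints and 7.17 and 6.29 FPKM in mRNA, and its −0.67 ± 0.44 did not pass the test (adjusted p = 0.26). Ifrd1, a transcriptional regulator, stood at 0.76, Cebpb, a factor made in several isoforms from 1 mRNA, at 1.44, and Eprs, the glutamyl-prolyl-tRNA synthetase, at 1.27. Of known ATF4 targets, Asns, asparagine synthetase, stood at 1.19 and Slc3a2, the heavy chain of amino acid transporters, at 1.61. The highest of the list was the stress-induced chromatin protein Nupr1 at 2.41. The whole list had 11 of 29 genes above and 10 below the median load.

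Polyamine genes were lower as a group than any other class of nuclear genes. Of 12 genes, 2 lay above and 9 below the median load. Odc1, ornithine decarboxylase, which makes putrescine, had 12.7 and 16.1 FPKM in footprints, against 106 and 101.1 FPKM in mRNA (−2.90 ± 0.14, adjusted p = 0.0018). Amd1, which supplies aminopropyl groups and has an upstream frame that senses polyamines, had 0.81 and 4.23 FPKM in footprints and 35.7 and 34.02 FPKM in mRNA (−3.67 ± 0.57, adjusted p = 0.011). Oaz1, antizyme, whose synthesis needs a frameshift that polyamines promote, had 11.9 and 10.2 FPKM in footprints and 80.3 and 81.8 FPKM in mRNA (−2.90 ± 0.11, adjusted p = 0.0016). The mRNA of these 3 genes was far above the footprints in every library, and the Amd1 footprints rest on 9 and 46 reads. It is not given how reads that match both Amd1 and its relative Amd2 were counted. Azin1, the antizyme inhibitor, stood at −1.07 and spermine synthase, Sms, at −2.97, with footprints of 0 and 1.14 FPKM. Spermidine synthase, Srm, went the other way, with 226 and 252 FPKM in footprints and 127 and 124 FPKM in mRNA (0.79 ± 0.08, adjusted p = 0.0041). Eif5a, which carries the spermidine-derived hypusine, had −0.69 and turned to 0.55 with the mRNA of the sgMyc set. Dohh, which completes hypusine, is listed at 0 footprints in both WT libraries, and with it at a floor of 3 reads per library the class median was −1.84.

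Ferritin and transferrin receptor mRNAs carry iron-responsive elements, ferritin before and the receptor after the coding sequence. Ftl1, the ferritin light chain, had 24.1 and 20.7 FPKM in footprints, against 377 and 385 FPKM in mRNA (−4.16 ± 0.10, adjusted p = 0.0016), and has 2 named pseudogenes. Fth1, the heavy chain, had 467 and 499.9 FPKM in footprints and 1090.3 and 1106 FPKM in mRNA (−1.31 ± 0.06, adjusted p = 0.0018), which turned to 0.54 with the mRNA of the sgMyc set. Both ferritin chains lay below their mRNA in every WT library. Tfrc, the transferrin receptor, had 81.7 and 99.7 FPKM in footprints and 31.3 and 30.5 FPKM in mRNA (1.39 ± 0.12, adjusted p = 0.0034), and Aco1, iron regulatory protein 1, stood at 1.43. Selenoproteins, which read UGA as selenocysteine, had 7 of 15 genes (46.7%) below and 2 above, from Selenot at −2.93 and the peroxidase Gpx4 at −2.30 to Selenos at 1.92.

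**Figure D4:**
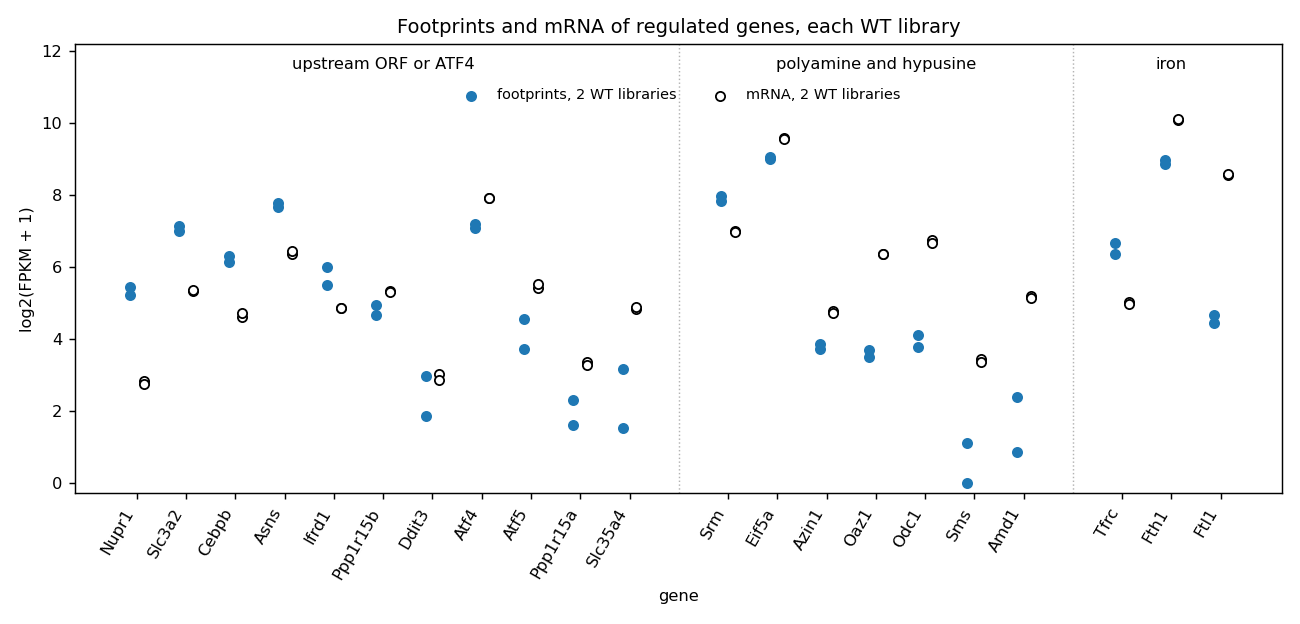
Footprints (filled, left of each pair) and mRNA (open, right) as log2(FPKM + 1) of 21 genes in each of the 2 WT libraries per assay, in order of relative load within 3 gene groups. Footprints lie above mRNA in Nupr1, Srm and Tfrc and below it in Atf4, Odc1 and Ftl1.

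All 4 genes that the study title names carried more footprints than the median gene. Myc, the transcription factor, had 281 and 281 FPKM in footprints, against 115 and 117 FPKM in mRNA. The footprint libraries agreed closely and did not overlap with mRNA, and the relative load was 1.15 ± 0.05 (adjusted p = 0.0018). Nat10, the RNA acetyltransferase, had 11.9 and 17.4 FPKM in footprints and 5.36 and 5.30 FPKM in mRNA (1.16 ± 0.22, adjusted p = 0.018). Dnmt1, the maintenance DNA methyltransferase, had 81.8 and 77.01 FPKM in footprints and 30.1 and 31.1 FPKM in mRNA (1.22 ± 0.07, adjusted p = 0.0020). Cdk2, a kinase of the G1/S transition, had 16.4 and 16.9 FPKM in footprints and 9.20 and 9.25 FPKM in mRNA (0.66 ± 0.10, adjusted p = 0.010). With the mRNA of the sgMyc set, Myc and Nat10 stayed positive at 2.10 and 1.37, and Dnmt1 and Cdk2 turned to −0.35 and −1.26. Myc was the only gene above the median load among 8 of its network, of which the repressor Mnt at −1.39, Mlxip at −1.54 and Mga at −0.46 were below, and Mga turned to 0.59 with the sgMyc set.

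Of antiviral and interferon-stimulated genes 5 of 13 lay above and 2 below the median load. Ifitm3 and Ifitm2, related membrane proteins that restrict virus entry, stood far apart. Ifitm3 had 349 and 368 FPKM in footprints and 88.3 and 90.4 FPKM in mRNA (1.87 ± 0.06, adjusted p = 0.0016). Ifitm2 had 7.26 and 16.4 FPKM in footprints and 111 and 110.3 FPKM in mRNA (−3.35 ± 0.40, adjusted p = 0.0062). The split of reads that match both genes is uncertain, since their handling is not given. Among 16 MHC class I presentation genes 8 were above and 2 below. B2m, the class I light chain, and H2-D1, a heavy chain, had 1.48 each, which moved to 0.10 and −0.11 with the mRNA of the sgMyc set. H2-T22, a nonclassical class I gene, is listed at 0 footprints in both libraries with 8.10 and 8.52 FPKM of mRNA. Immediate early genes had 8 of 29 above and 9 below, and their median of 0.06 was −0.08 or −0.06 with either footprint library alone.

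RNAs that encode no protein show what the assays hold beyond translation. Malat1, a nuclear noncoding RNA, had 26.7 and 27.2 FPKM in footprints, against 291 and 331 FPKM in mRNA (−3.60 ± 0.09, adjusted p = 0.0016). Neat1 and Tug1, also noncoding, had −3.45 and −3.06. The list of long noncoding and snoRNA host RNAs they belong to was split, with 5 of 17 above and 5 below the median load and a median of −0.25. The 59 genes annotated as antisense, lincRNA or processed transcript had a median of −1.49 and the 29 pseudogenes −2.26. Some short RNAs were high. Rny1, a Y RNA, had 254.9 and 224 FPKM in footprints and 13.04 and 11.2 FPKM in mRNA (4.07 ± 0.12, adjusted p = 0.0016), and Rny3 stood at 3.28, while of 8 snoRNA genes 2 lay above and 1 below the median load. Their relative loads were 0.98 (Rny1) and 0.88 (Rny3) in sgNAT10 libraries. High values of the measure were therefore also found in RNAs without a reading frame.

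Some of the lowest protein-coding loads were in genes that overlap or resemble another. The lowest was that of Lars2, the mitochondrial leucyl-tRNA synthetase, which had no overlapping coding gene and no named pseudogene among those counted. Lars2 had 11.6 and 5.61 FPKM in footprints, against 432 and 406 FPKM in mRNA (−5.65 ± 0.35, adjusted p = 0.0020), but −0.16 with the mRNA of the sgMyc set (adjusted p = 0.68). Tlcd1, a membrane lipid gene, had 1.27 and 2.54 FPKM in footprints and 105 and 102.1 FPKM in mRNA (−5.33), and overlaps Rpl23a, whose mRNA level was 1170 and 1161 FPKM. Tuba1b, an alpha-tubulin gene, had 5.92 and 14.9 FPKM in footprints and 393 and 402 FPKM in mRNA (−5.37), while its near-identical neighbour Tuba1c stood at 0.11. The split of reads between Tlcd1 and Rpl23a and between the tubulin genes is uncertain. Gltp, which transfers glycolipids, Nutf2, a nuclear import factor, and Chchd2, a mitochondrial protein, had −4.195, −4.13 and −4.04, from 3 to 36 footprint reads per library. Map2k7, a MAP kinase kinase, is listed at 0 footprints in both libraries and lay at least 9.80-fold lower than the median gene at a floor of 3 reads per library.

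Across genes the load was weakly related to length and to abundance. Spearman's correlation was −0.131 with gene length over 6318 genes. In 5 equal groups from short to long genes the medians were 0.29, 0.06, −0.02, −0.13 and −0.16. With the mRNA level in the WT libraries of the sgMyc set, which share no reads with the load, Spearman's correlation was 0.14 over 6330 genes, and the medians in 5 equal groups from low to high were −0.25, −0.09, −0.03, 0.15 and 0.29. The share of genes called above the median load was 19% in the lowest of these groups and 44.9% in the highest, and the share called below 29.5% and 29.1%. The minimum of 5 FPKM was set on the mRNA that enters the load, where the lowest group had a median of 6.89 FPKM. Genes low in the sgMyc set therefore had a load only if that other mRNA reached the minimum. The part of this selection in the trend was not tested. These are descriptions over genes that share the same libraries. The 780 genes with a listed acRIP peak had a median of 0.10, against −0.02 in the other 5559. At the threshold, Fancf, Azi2 and Pfn2 (5.0006, 5.0007 and 5.0010 FPKM) were just inside with relative loads of 1.02, −0.63 and −0.49, and Cog6, Nnt and Ddt (4.9979, 4.9989 and 4.9998 FPKM) just outside with −0.27, 0.30 and 2.53.

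Loads were recomputed with the WT mRNA libraries of the sgMyc set. Of 1915 genes above the median load with a value in the sgMyc set, 1774 were also above 0 with that mRNA, and of 1686 below, 1546 were also below 0. The loads with either mRNA correlated at r = 0.823 over 6330 genes, sharing the same footprints. Medians of −0.18 and −0.10 replaced −0.91 and −0.65 in the large and small subunit ribosomal proteins, and ribosome biogenesis genes moved to 1.33. Mitochondrially encoded genes, polyamine genes and histones kept their signs at −3.56, −2.53 and 5.73. The medians changed sign in 8 of the 38 classes, among them the Myc network at 0.17, chemokine, cytokine and growth factor genes at −0.80 and genes with upstream frames or induced through ATF4 at 0.34.

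**Figure D5:**
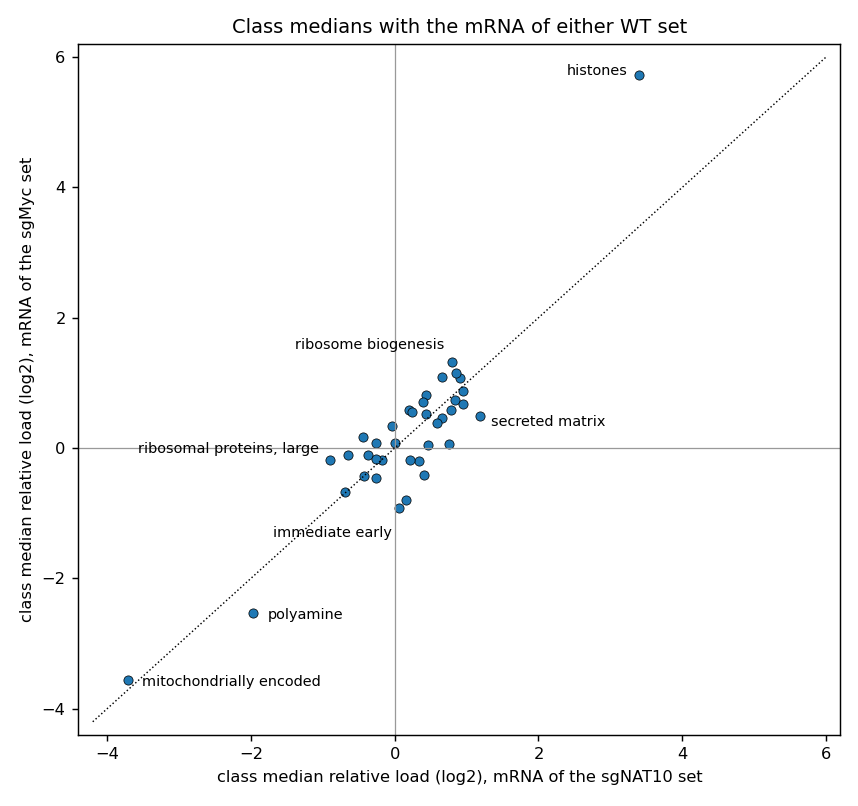
Class medians of the relative load (log2) of 38 classes with the WT mRNA of the sgMyc set (vertical axis) and with that of the sgNAT10 set (horizontal axis), on the same footprints, with a dotted line of equality. Mitochondrially encoded and polyamine genes stay low and histones high with either set, while ribosomal proteins and secreted matrix proteins move towards 0.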

How the data were processed

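Per the submitters' processing notes, FastQC, Trim Galore, Bowtie2, featureCounts and the build mm10 were used; versions, library selection and the handling of reads with several matches are not given in the sources used here. The deposited values are FPKM in the Ribo-seq and sgNAT10-set mRNA tables and read counts beside FPKM in the sgMyc-set table, per the file headers. Of the authors' acRIP peak list, with its fold enrichment per peak, only gene names were used. Whole reads were recovered from ratios of FPKM between libraries in 99.98% of genes for mRNA and 99.99% for Ribo-seq (relative tolerance 5e-08), and they gave depth and a count test. Relative gene length came from counts and FPKM of the sgMyc table.

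Log2(FPKM + 1) of 2 WT Ribo-seq and 2 WT mRNA libraries entered a linear model in limma 3.58.1 under R 4.3.3, with a trended prior variance, and the Ribo minus mRNA contrast was tested against its median over the 6339 genes, with Benjamini-Hochberg adjustment and a threshold of 0.05. With equal numbers of libraries the pooled variance gives the error of the difference, though the assays spread differently. The degrees of freedom are still counted from both assays, so p-values can be too small where footprints carry most of the spread. edgeR 4.0.16 (quasi-likelihood test) on recovered reads was an alternative. The fits were also run on simulated data in which both assays had the same spread. Those runs cannot test the calls under the unequal spread of these assays. Gene classes are described by counts and medians without a test of the class. The genes, classes and gene lists were chosen with earlier results of these data known. Named were the title genes, the 10 highest and lowest loads among called coding genes whose assays did not overlap, the extremes of each class (up to 3 more each way in the main classes), the 5 genes with most mRNA and the 3 on each side of the threshold, of which the text prints part; single genes of controlled translation, of the complexes and of immune lists were added after their values were seen. Features of proteins were not used here. Some items are not reported here.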

Additional observations from a re-analysis of the deposited data

How the results depend on the processing

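At a minimum of 20 FPKM, 671 genes lay above and 673 below the median load, with fewer genes tested, and class medians were −1.11 for large and −0.85 for small subunit ribosomal proteins, −2.09 for histones, −0.79 for noncoding and host genes, 1.07 for secreted matrix and 0.65 for respiratory genes. Signs also turned there in glycolytic (−0.12), immediate early (−0.028), cholesterol synthesis (−0.83), receptor (0.56), iron (−0.70), chromatin (0.033), chemokine and cytokine (−0.15) and other TOP genes (−0.22). At 1 FPKM the medians were −0.80 (large subunit), 5.64 (histones), 1.04 (matrix) and 0.92 (respiratory), and with the minimum on both assays −1.09 (large subunit), −0.87 (small subunit), 5.03 (histones), −3.93 (mitochondrially encoded), 0.93 (matrix) and 0.64 (respiratory). Uncentred, they were −0.78, −0.52, 3.52, 1.31 and 0.98 for large subunit, small subunit, histone, matrix and respiratory genes.

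With the mRNA of the sgMyc set the medians were −0.18 (large subunit), −0.10 (small subunit), 5.73 (histones), 0.074 (noncoding), 0.48 (matrix) and 1.15 (respiratory), and turned to −0.18 in glycolytic, −0.92 in immediate early, −0.20 in cytoskeletal, −0.41 in cholesterol and −0.80 in chemokine and cytokine genes, and to 0.17 in the Myc network and 0.34 in upstream frame and ATF4 genes. Loads turned to −1.26 in Cdk2, −0.35 in Dnmt1, −0.48 in Spp1, −0.62 in Thbs1, −0.44 in Vim, −1.04 in Col1a2, −1.05 in Fn1, −0.11 in H2-D1, −0.69 in Tuba1c, 2.46 in Hist1h2ap, 1.78 in Hist1h2ao, 0.14 in Ppp1r15b, 0.54 in Fth1, 2.66 in Gapdh, 0.057 in Eef2, 0.55 in Eif5a and 0.59 in Mga. The cause was not tested. Without genes with a named pseudogene or an overlapping coding gene the medians were −0.46 (large subunit), 0.52 (small subunit), 3.35 (histones) and 0.95 (respiratory), and turned to −0.059 in MHC class I and 0.38 in upstream frame and ATF4 genes. Medians near 0 also changed sign elsewhere: other TOP genes stood at −0.21 and glycolytic genes at −0.0055 with the minimum on both assays, and at 1 FPKM upstream frame and ATF4 genes stood at 0.17 and chemokine and cytokine genes at −0.0054. Without footprint replicate 1, chemokine and cytokine genes stood at −0.14 and other TOP genes at −0.057. Histones stood at 3.49 and 3.44 with pseudocounts of 0.1 and 0.5 and 3.48 with edgeR, and respiratory genes at 0.88 with 0.1 and 0.84 over coding genes only. The edgeR fit, the coding genes alone and the removal of genes with named pseudogenes or overlaps were chosen after seeing the data.

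Leaving out 1 library gave 837 to 2884 genes above and 457 to 2888 below, and medians of −0.93 to −0.78 for the large subunit, 3.31 to 3.43 for histones, 1.03 to 1.21 for matrix and 0.83 to 0.90 for respiratory genes. Immediate early genes ranged from −0.080 to 0.081, below 0 without footprint replicate 1 or 2 (−0.080 and −0.057). With the replicate number as a block, 1791 genes were above and 1607 below; deviations of libraries with the same number correlated at 0.0488, and nothing in the labels makes the numbers pair libraries. Over 171 named genes and all alternatives, 2801 of 2933 values kept their direction and side of the threshold, 90 lost and 25 gained the call and 17 changed sign. Footprint depth limits genes with few reads, and PCR reads are not independent molecules.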
